A study of Mus musculus with 6 samples.

Results

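The nonclassical H2-Q and H2-T genes are 10 class I genes of the mouse major histocompatibility complex on chromosome 17, taken here by symbol from the deposited gene table: H2-Q1, H2-Q2, H2-Q4, H2-Q7, H2-Q10, H2-T3, H2-T10, H2-T22, H2-T23 and H2-T24. All 10 were found among the 19616 genes of the table, and all 10 passed the filter on low counts that left 15618 genes to test. RNA came from jejunal intestinal epithelial cells (IEC) enriched with EDTA from mice aged 3 months. The 3 control mice (C1, C3 and C3-3) were wild-type. The 3 mutant mice (H1, H5 and H9) were villin-Cre Hdac1-/-; Hdac2-/-, called Hdac1/2-deleted here, in which the villin promoter drives Cre in the intestinal epithelium and so removes both histone deacetylases there. Each mouse gave 1 library. The mice were of a mixed C57BL/6J, 129SV and CD1 background, so they may carry different H2 haplotypes, while the reference genome is that of C57BL/6J. The part of haplotype in the values below was not tested.

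Classical class I molecules present peptides from inside the cell to CD8+ T cells on nearly all cells. Nonclassical ones share the fold and most pair with the light chain beta 2-microglobulin, but they vary less between individuals, are often restricted to certain tissues, and several are read by intraepithelial and innate-like lymphocytes. In the mouse they lie in the Q and T regions of the H2 complex. H2-T3 encodes the thymus leukemia antigen of the intestinal epithelium, which binds CD8 alpha homodimers. H2-T23 encodes Qa-1, which displays leader peptides of other class I molecules to the CD94/NKG2 receptors. H2-T10 and H2-T22 products are ligands of some gamma delta T cell receptors, H2-Q7 encodes a Qa-2 antigen anchored by a lipid tail, and H2-Q10 encodes a secreted molecule best known from the liver.

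In Hdac1/2-deleted IEC, 7 of the 10 genes fell: H2-Q1, H2-Q2, H2-Q4, H2-T3, H2-T10, H2-T22 and H2-T23. The largest falls were those of H2-T23, from a mean of 279 to 20.2 CPM (counts scaled to the library size), and of H2-T22, from 46.1 to 5.36 CPM. H2-Q7, H2-Q10 and H2-T24 did not pass the test. A gene was called when its Benjamini-Hochberg adjusted p in edgeR's quasi-likelihood test was at most 0.05 and its change at least 2-fold. Of all genes tested, 12.7% were called lower and 12.4% higher, against 7 and 0 of these 10. All 10 log2 fold changes (Hdac1/2-deleted over control) were negative, with a median of -2.00 beside -0.01 over all tested genes. No member was higher at an unadjusted p under 0.05 either, and DESeq2 and limma-voom also called 7 lower and 0 higher. With 3 mice a group the smallest p of an exact permutation test is 0.1, so the p-values given are those of fits across all genes.

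Promoter sequence was available in the RefSeq table (GRCm38.p6) for 7 of the 10 genes, namely H2-Q2, H2-Q4, H2-Q7, H2-Q10, H2-T3, H2-T22 and H2-T23. The windows below run up to 250 bases before the gene start, ending before the outermost start annotated by RefSeq or GENCODE. They show a pair of genes that fell, H2-Q4 and H2-T22, and a pair that did not pass the test, H2-Q7 and H2-Q10. Capitals mark, on either strand, the CCAAT box, the TATA box as TATAAA, the interferon-response letters as TTTCACTT or as GAANNGAAA, and a kappa B site as GGGATTCCC, a choice made after the sequences had been seen.
H2-Q4 (chr17:35379367-35379616, + strand): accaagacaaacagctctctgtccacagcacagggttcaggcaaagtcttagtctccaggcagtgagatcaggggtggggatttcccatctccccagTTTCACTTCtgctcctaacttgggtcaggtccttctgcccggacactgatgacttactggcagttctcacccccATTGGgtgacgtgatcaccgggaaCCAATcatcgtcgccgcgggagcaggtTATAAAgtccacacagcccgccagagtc
H2-T22 (chr17:36042748-36042992, - strand): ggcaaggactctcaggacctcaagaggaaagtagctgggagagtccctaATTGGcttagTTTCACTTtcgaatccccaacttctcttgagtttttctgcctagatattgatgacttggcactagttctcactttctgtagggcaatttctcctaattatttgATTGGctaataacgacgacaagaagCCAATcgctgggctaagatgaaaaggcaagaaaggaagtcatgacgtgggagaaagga
H2-Q7 (chr17:35438905-35439154, + strand): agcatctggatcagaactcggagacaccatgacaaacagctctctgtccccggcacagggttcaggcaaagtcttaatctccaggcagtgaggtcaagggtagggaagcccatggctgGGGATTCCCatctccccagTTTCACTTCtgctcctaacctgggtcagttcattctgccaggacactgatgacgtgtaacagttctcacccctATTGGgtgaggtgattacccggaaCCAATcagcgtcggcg
H2-Q10 (chr17:35469839-35470088, + strand): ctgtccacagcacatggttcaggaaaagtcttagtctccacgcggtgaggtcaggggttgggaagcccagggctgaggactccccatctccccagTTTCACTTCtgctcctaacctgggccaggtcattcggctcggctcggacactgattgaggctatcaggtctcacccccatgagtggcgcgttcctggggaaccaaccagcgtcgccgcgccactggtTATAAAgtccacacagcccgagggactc
The letters TTTCACTT stood in 5 of the 7 untrimmed windows of 250 bases (H2-Q4, H2-Q7, H2-Q10, H2-T3 and H2-T22) and in 1.36% of 32851 mouse promoter windows of the same length. In H2-Q4, H2-Q7 and H2-Q10 they overlapped a reverse-strand GAANNGAAA, which stood in 6.31% of all windows. The bases around them were nearly the same in H2-Q4, H2-Q7 and H2-Q10, so the matches in these related genes are not independent of one another. CCAAT stood in 5 of the 7 and in 33.8% of all, TATAAA in 3 and 12.4%, and GGGATTCCC in H2-Q7 alone and 0.301%. Only exact letters were counted and variants of a site were not searched. At the place of the GGGATTCCC of H2-Q7, the H2-Q4 window holds the similar ggggatttccc, which was not counted. All these counts took the full 250 bases of each window, not cut at the outermost annotated start. The TTTCACTT of H2-T3 and the CCAAT of H2-T23 lay past that start, so windows ending before it do not hold them. Thus windows of genes that fell and of genes that did not pass the test both held TTTCACTT and CCAAT. H2-Q7 carried each, 113 and 16 bases before its start. H2-T22 did so too, 191 and 63 bases before the end of its full 250-base window, of which the first 245 bases are printed. A match describes letters and says nothing of binding.

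Total gene counts were between 58017009 and 65902344 in control and between 36111035 and 65230566 in Hdac1/2-deleted libraries, so that 3 counts amounted to between 0.0405 and 0.0790 CPM, which covers counting error only. Hdac1 lay between 34.5 and 48.9 CPM in control mice and between 2.53 and 4.81 CPM in Hdac1/2-deleted mice (log2 fold change -3.43, SE 0.26, adjusted p = 2.91e-05). Hdac2 differed little in whole-gene counts, which do not check a deleted exon (log2 fold change -0.18, adjusted p = 0.438). Epithelial markers were high in every library. Their summed level was between 12895 and 14753 CPM in control and between 10331 and 12697 CPM in Hdac1/2-deleted mice, without overlap. C3 was the only library with Y chromosome transcripts beyond a few reads, so a sex difference cannot be told apart from the other differences between control mice. No Hdac1/2-deleted library held more than a few such reads, so the groups were unequal in this too. The part of sex in the difference between the groups was not tested.

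Among the H2-Q genes, H2-Q1 (GRCm38 chr17:35320405-35325099) was measured at 157 CPM in C1, 190 in C3 and 242 in C3-3, and at 22.04, 26.8 and 32.9 CPM in H1, H5 and H9. The groups were far apart, at 196 ± 42.7 against 27.2 ± 5.43 CPM (SD, n = 3 mice each), and H2-Q1 had the lowest adjusted p of the 10 genes (log2 fold change -2.85, SE 0.22, adjusted p = 2.85e-05). H2-Q2 (chr17:35342242-35346762) stood at 629, 341 and 504 CPM in C1, C3 and C3-3, and at 73.5, 89.7 and 88.6 CPM in H1, H5 and H9. It fell with no overlap between groups, by 2.55 on the log2 scale (SE 0.23, adjusted p = 6.81e-05), C1 being the highest and C3 the lowest control mouse.

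H2-Q4 (chr17:35379617-35385290) gave 29.7 CPM in C1 and 28.5 in C3 but 101 CPM in C3-3, against 13.2, 14.7 and 15.0 CPM in H1, H5 and H9. The groups did not overlap, and 1 control mouse held most of the control level (log2 fold change -1.89, SE 0.52, adjusted p = 0.0261). Without C3-3 the log2 fold change was -1.02 and the gene was still called. The adjusted p was 0.0895 without H1, 0.0796 without H5 and 0.0865 without H9, past the limit each time.

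H2-Q7 (chr17:35439155-35443773) was low in all mice, at 2.69, 3.01 and 5.93 CPM in C1, C3 and C3-3 and 2.38, 2.97 and 4.13 CPM in H1, H5 and H9, and the groups overlapped (log2 fold change -0.29, SE 0.37, adjusted p = 0.559). Without C3-3 its log2 fold change was 0.16. H2-Q10 (chr17:35470089-35474563) was at 11.4, 27.4 and 13.0 CPM in C1, C3 and C3-3 and at 18.9, 13.0 and 12.3 CPM in H1, H5 and H9. C3 alone lay above the Hdac1/2-deleted range (log2 fold change -0.23, SE 0.34, adjusted p = 0.629), and without C3 the log2 fold change was 0.28.

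The H2-T genes were led by H2-T3 (chr17:36185572-36190287), whose thymus leukemia antigen marks the small intestinal epithelium. It was at 383 CPM in C1, 648 in C3 and 365 in C3-3, and at 95.4, 104 and 123 CPM in H1, H5 and H9. Every control mouse was above every Hdac1/2-deleted mouse, and the mean fell 4.33-fold (log2 fold change -2.11, SE 0.24, adjusted p = 2.30e-04). In H2-T23 (chr17:36029773-36032855) the control mice differed among themselves, with 263 CPM in C1, 115 in C3 and 460 in C3-3. The Hdac1/2-deleted mice were close together, at 21.5, 18.8 and 20.4 CPM. This was the largest change of the 10 genes, with means 13.8-fold apart (log2 fold change -3.78, SE 0.50, adjusted p = 0.00128).

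H2-T22 and H2-T10, whose products gamma delta T cells can recognise, both fell. H2-T22 (chr17:36037128-36042747) was at 42.2, 34.3 and 61.8 CPM in C1, C3 and C3-3 and at 6.007, 4.08 and 5.998 CPM in H1, H5 and H9 (log2 fold change -3.10, SE 0.26, adjusted p = 5.11e-05). H2-T10 (chr17:36115876-36121465), annotated as a polymorphic pseudogene in the reference strain, was at 5.93, 12.7 and 7.21 CPM and at 2.54, 2.71 and 2.93 CPM (log2 fold change -1.66, SE 0.31, adjusted p = 0.00284). Neither gene's groups overlapped. H2-T24 (chr17:36005695-36020560) was the lowest of the H2-T genes in control mice, at 2.37, 2.54 and 2.58 CPM in C1, C3 and C3-3, and was at 2.24, 1.26 and 1.89 CPM in H1, H5 and H9. Its groups did not overlap, but the difference did not pass the test (log2 fold change -0.47, SE 0.30, adjusted p = 0.245). With H2-T24, the groups of 8 of the 10 genes did not overlap and were lower in Hdac1/2-deleted mice, beside 26.6% of all tested genes.

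**Figure D1:**
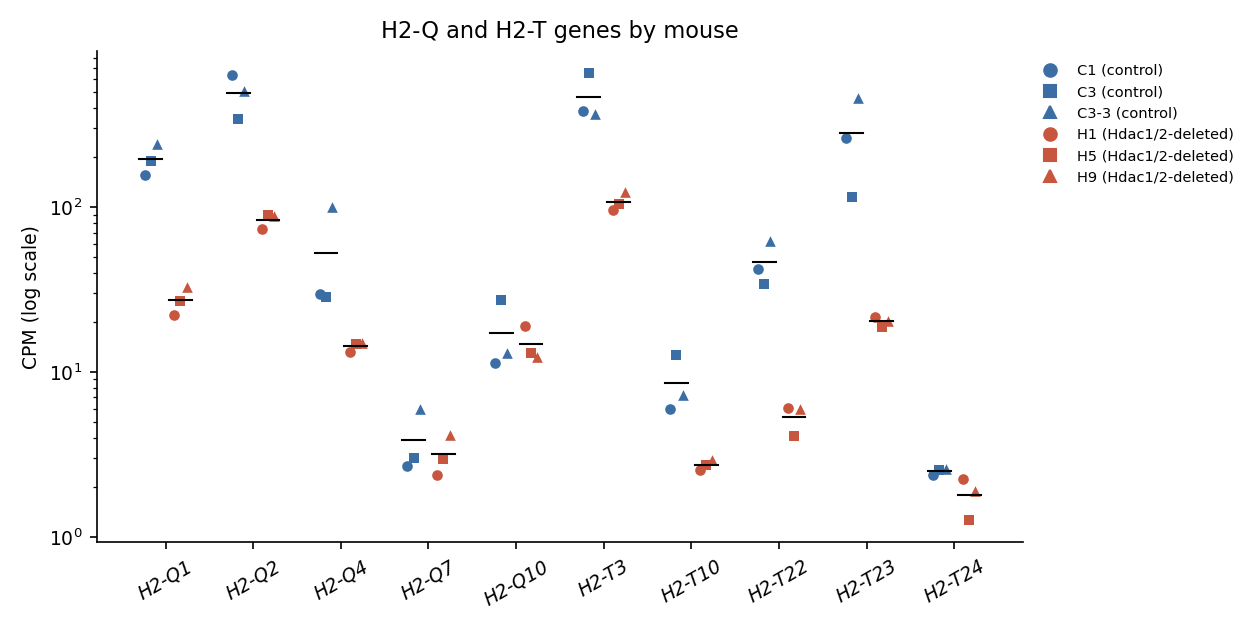
CPM of each gene in each of the 6 mice on a log axis, with blue points for control and red points for Hdac1/2-deleted mice, and a black bar at each group's mean. The groups stand apart in H2-Q1, H2-Q2, H2-Q4, H2-T3, H2-T10, H2-T22, H2-T23 and, narrowly, H2-T24, and they overlap in H2-Q7 and H2-Q10.

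Summed over genes, both regions were lower in every Hdac1/2-deleted mouse. The 5 H2-Q genes together gave 830, 591 and 865 CPM in C1, C3 and C3-3 and 130, 147 and 153 CPM in H1, H5 and H9, which was 5.32-fold between means. The 5 H2-T genes together gave 696, 812 and 896 CPM and 128, 131 and 154 CPM, which was 5.83-fold. These sums, whose groups did not overlap, rest mainly on H2-Q2, H2-Q1, H2-T3 and H2-T23, and they were not tested against each other.

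Per kilobase of annotated exon, the level in control mice was highest for H2-Q2 (225 CPM per kilobase), followed by H2-T3 (171), H2-T23 (96.6), H2-Q1 (68.7), H2-Q4 (20.4), H2-T22 (13.5), H2-Q10 (3.97), H2-T10 (2.52), H2-T24 (1.14) and H2-Q7 (0.908). Neighbours in this order were separated over the control mice only between H2-Q1 and H2-Q4, between H2-T22 and H2-Q10 and between H2-T10 and H2-T24. The ranges of all other neighbours overlapped. In Hdac1/2-deleted mice H2-T3 (39.4 CPM per kilobase) and H2-Q2 (38.5) still led, while H2-T23 stood at 7.01, below H2-Q1 at 9.52, and H2-T22 at 1.57, below H2-Q10 at 3.38. H2-Q7 was the lowest in both groups.

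Control mice differed more among themselves than Hdac1/2-deleted mice did in 9 of the 10 genes, H2-T24 being the exception. The ratio of the highest to the lowest of the 3 mice had a median of 1.99 in control and 1.38 in Hdac1/2-deleted mice over these genes. Over the 10497 tested genes at or above the control level of the lowest of them, the medians were 1.30 and 1.33. A ratio above 2 occurred in 5 of the 10 genes in control mice (H2-Q4, H2-Q7, H2-Q10, H2-T10 and H2-T23) and in none in Hdac1/2-deleted mice, beside 9.34% and 8.32% of those tested genes. The widest were H2-T23, at 4.01 in control and 1.14 in Hdac1/2-deleted mice, and H2-Q4, at 3.53 and 1.13. No single mouse was highest throughout, since C3-3 had the highest control level in 6 genes, C3 in 3 and C1 in 1. The spread of these genes was described and not tested.

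**Figure D2:**
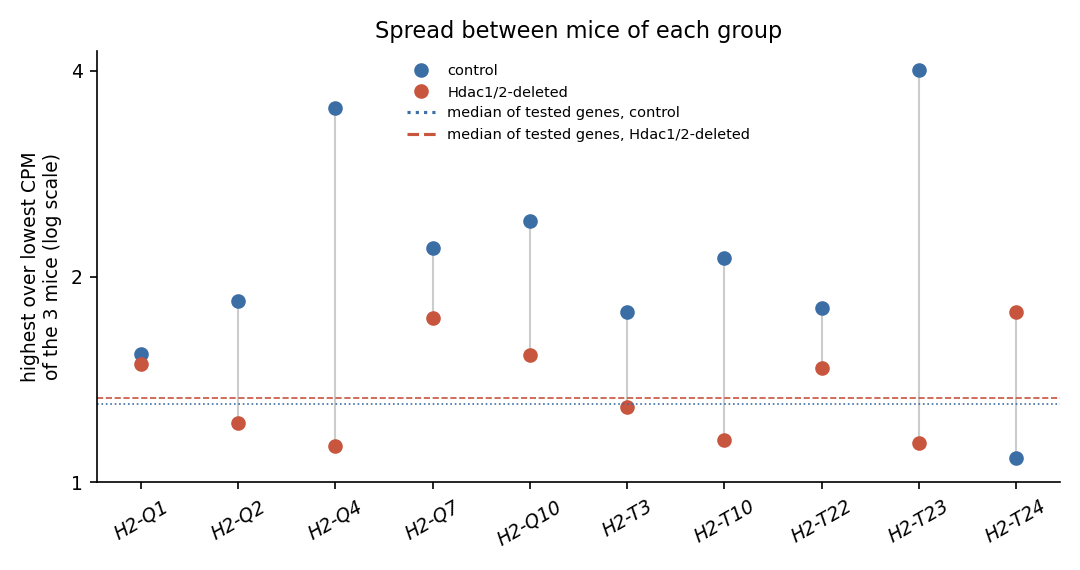
Ratio of the highest to the lowest CPM among the 3 mice of each group, on a log axis, for each gene, with a dotted (control) and a dashed (Hdac1/2-deleted) line at the median of the 10497 tested genes of similar or higher level. The control ratio was the larger in all genes but H2-T24, and reached 4.01 in H2-T23.

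Both groups of genes lie in compact clusters, and all gene positions given are those of GENCODE vM21 on GRCm38. The H2-Q cluster, from H2-Q1 to H2-Q10, spans 154 kb and holds 7 other annotated genes, of which 4 were tested. Among them 2 were called lower and 0 higher, beside 12.7% and 12.4% of all tested genes. These 2 were H2-Q5, a further class I gene, by 1.66 on the log2 scale (adjusted p = 0.0189), and Gm11131, a transcript antisense to H2-Q4, by 1.98 (adjusted p = 0.00270). The call of H2-Q5 was lost without C3 or without H1, where its adjusted p reached at most 0.0800. The remaining tested neighbours, H2-Q3 (log2 fold change -1.61, adjusted p = 0.358) and H2-Q6 (-1.57, adjusted p = 0.173), named here after their values had been seen, did not pass the test. H2-Q3 was at 22.6, 46.9 and 0.772 CPM in C1, C3 and C3-3, and between 7.18 and 8.23 CPM in Hdac1/2-deleted mice. H2-Q6 was at 1.96, 1.58 and 12.2 CPM in C1, C3 and C3-3, and between 1.24 and 2.54 CPM in Hdac1/2-deleted mice. In both genes the groups overlapped.

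The H2-T cluster, from H2-T24 to H2-T3, spans 185 kb and holds 19 other annotated genes. Of these, 11 were tested, 7 called lower and 1 higher, beside 12.7% and 12.4% of all tested genes. Not all are unlike the 10 genes: Gm7030 and Gm11127 share runs of 100 bases with H2-T23, and Gm11127 also with H2-T22. The genes called lower were Gm17782 (log2 fold change -5.09), Gm11127 (-4.29), Gm8909 (-3.73), Gm7030 (-2.07), C920025E04Rik (-1.97), Gm10499 (-1.93) and Gm20478 (-1.57). Gm17782 was low, between 0.884 and 2.39 CPM in control mice and at 4, 1 and 3 counts in H1, H5 and H9. Gm11127 varied between 19.0 and 109 CPM among control mice. The gene called higher, BC023719, rose from between 0.301 and 0.720 CPM to between 7.29 and 8.92 CPM (log2 fold change 3.88, adjusted p = 6.81e-05), and overlaps H2-T10 by 1246 bases on the opposite strand. Thus H2-T10 fell while an overlapping antisense gene rose.

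H2-Bl, a class I gene of the T region named here after its values had been seen, was uneven between the control mice. It gave 14.5 CPM in C1 and 2.43 in C3 but 769 CPM in C3-3, against 17.4, 22.9 and 24.8 CPM in H1, H5 and H9. The groups overlapped and it did not pass the test (adjusted p = 0.236).

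**Figure D3:**
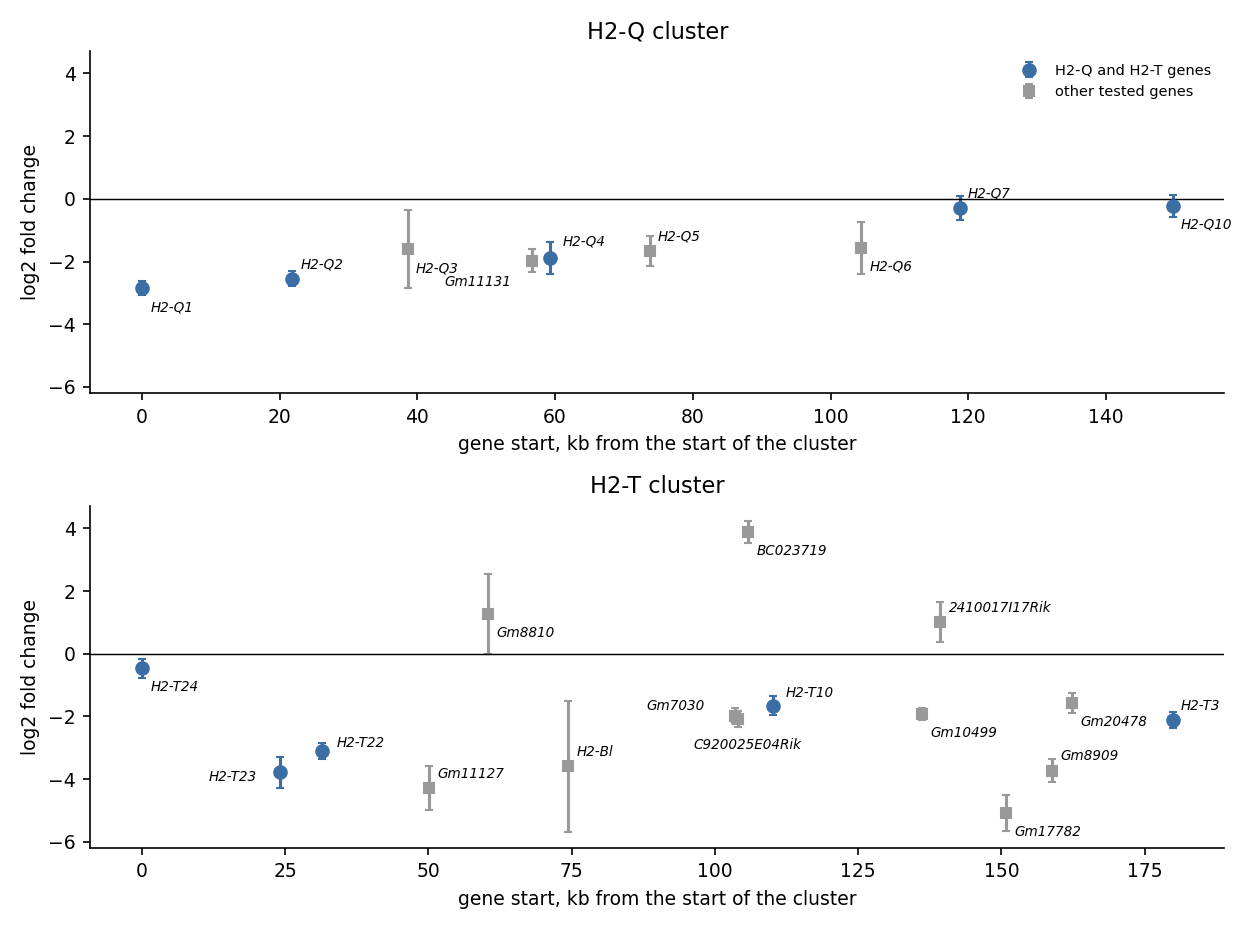
Log2 fold change with its standard error against the distance of each gene's start from the start of the H2-Q cluster (top) or the H2-T cluster (bottom), in kilobases, for the 10 genes (blue circles) and the other tested genes between them (grey squares). Values below 0 prevail along both clusters, H2-Q7 and H2-Q10 lie near 0 at the far end of the H2-Q cluster, and BC023719 stands at 3.88.

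These genes resemble one another, so reads may be shared between them. Of all runs of 100 bases in their GENCODE vM21 transcripts, the share also found in a transcript of another gene was 12.0% for H2-Q7 (H2-Q10 first), 8.86% for H2-T22 and 7.06% for H2-T10 (mostly each other), 8.05% for H2-Q1 (H2-Q2 first) and 8.01% for H2-Q10. It was 5.09% for H2-Q2, 3.15% for H2-T23 (Gm7030 first, then Gm11127), 2.16% for H2-Q4, and 0 for H2-T3 and H2-T24. The part of shared reads in the values was not tested. The genes H2-T22, H2-T23 and H2-T24 overlap the antisense gene A930015D03Rik, which lay between 4.98 and 6.36 CPM in all 6 mice. H2-T10 lies within Gm7030 on the same strand. How the authors' counting treated strand and overlaps is not given in the sources used here, so H2-T10, Gm7030 and BC023719 are uncertain as separate values, and the counts of H2-T24, lower than those of A930015D03Rik, are uncertain too.

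Other class I genes were read from lists made with earlier results of these data known. Among 4 tested genes of the classical class I molecules and the light chain, 2 were called lower and 0 higher. B2m, the light chain, was between 2110 and 2817 CPM in control and between 715 and 888 CPM in Hdac1/2-deleted mice (log2 fold change -1.62, adjusted p = 2.32e-04). H2-K1, a classical heavy chain, was between 2068 and 3605 CPM and between 546 and 681 CPM (log2 fold change -2.11, adjusted p = 2.21e-04). H2-D1, the other main classical heavy chain, was lower by less than 2-fold (log2 fold change -0.74, adjusted p = 0.0216). The remaining gene, H2-K2, named here after its values had been seen, was at 24.1, 83.4 and 9.09 CPM in C1, C3 and C3-3. Its groups overlapped and it did not pass the test (log2 fold change -1.94, adjusted p = 0.107). The median of this list, H2-K2 included, was -1.78, beside -2.00 for the 10 nonclassical genes.

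Further nonclassical class I genes outside the 10 counted 3 called lower and 0 higher of 9 tested, with 1 higher at an unadjusted p under 0.05, and a median of -1.32. Those called were H2-M3, which presents formylated bacterial peptides (log2 fold change -1.74), H2-Q5 (-1.66) and Hfe, a regulator of iron uptake (-1.32). H2-M2, named after its values had been seen, was called higher by DESeq2, by edgeR on library totals, with a minimum of 10 counts in every sample and without C3, and not otherwise, so the list's count of 0 higher depends on these choices. H2-Q5, H2-Q6 and H2-Bl, all in this list, are also counted among the neighbours above.

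Of 8 genes of the machinery that loads peptides onto class I molecules, 3 were called lower and 0 higher: Tap2, a subunit of the peptide transporter (-1.22), Tapbp, which encodes tapasin (-1.11), and Tapbpl (-1.04). Leaving out a mouse changed these calls, with 0 genes of the list called without C3 and 1 without H1 or without H9. Its 4 genes at an unadjusted p under 0.05 and below 0 faced 3 above 0, so the list had no single direction. Tap1, the other transporter subunit, had a log2 fold change of 0.24 (adjusted p = 0.522). Of 5 immunoproteasome genes 0 were called in either direction, by edgeR, DESeq2 or limma-voom, with 1 lower at an unadjusted p under 0.05, and Psmb8 had a log2 fold change of -0.49 (adjusted p = 0.208).

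**Figure D4:**
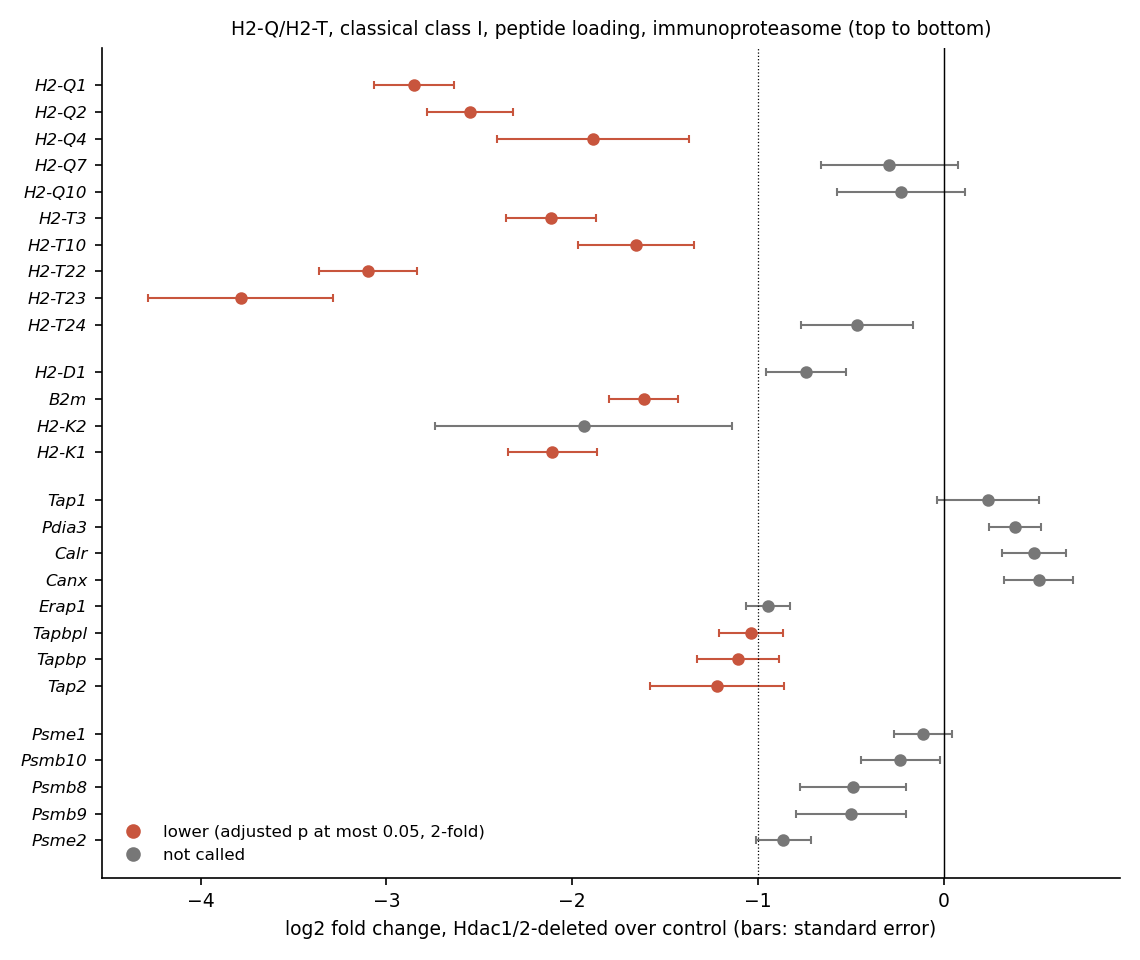
Log2 fold changes (Hdac1/2-deleted over control) with standard errors for, from top to bottom, the 10 H2-Q and H2-T genes, the classical class I genes with B2m, the peptide loading genes and the immunoproteasome genes, in red where called lower and grey where not called. The dotted line marks a 2-fold fall, and H2-T23 lies farthest to the left, at -3.78.

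Regulators of class I transcription had mostly negative log2 fold changes, few of them past 2-fold. Of 14 tested, 10 were below 0 and 2 were called lower, Rfxank (-1.44) and Rfxap (-1.14), which encode subunits of the RFX complex that binds class I and class II promoters, and 0 higher, with 8 lower and 1 higher at an unadjusted p under 0.05. Nlrc5, the class I transactivator, was low, between 1.48 and 3.40 CPM in control and between 1.26 and 1.63 CPM in Hdac1/2-deleted mice (log2 fold change -0.90, adjusted p = 0.0785). Irf1 had a log2 fold change of -0.81 (adjusted p = 0.0152), short of 2-fold. Interferon-stimulated genes moved both ways, with 3 of 25 called lower (Ifih1 -2.50, Irf7 -1.40 and Irf9 -1.23) and 5 higher, led by Oas2 (2.15), Ifit2 (1.86) and Mx2 (1.79). Of 11 interferon receptor and kinase genes 0 were called by edgeR, DESeq2 or limma-voom, while 5 were lower at an unadjusted p under 0.05.

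Lymphocytes that carry receptors for these molecules lie within the epithelium and may be present in EDTA-enriched IEC, and in bulk RNA fewer cells of a type and less RNA per cell cannot be told apart. Of 8 tested receptor genes 3 were called lower and 0 higher, with 5 lower and 0 higher at an unadjusted p under 0.05. Klrd1, which encodes CD94, the receptor chain that reads Qa-1, fell from between 1.51 and 3.78 CPM to between 0.500 and 0.829 CPM (log2 fold change -2.09, adjusted p = 0.00416). Tcrg-C1, a gamma chain constant region (-1.48), and Cd8a, whose product binds the thymus leukemia antigen (-1.32, adjusted p = 0.0378), were called as well. For both the groups overlapped. The call of Cd8a was lost without any of C3, C3-3, H1, H5 and H9, and that of Tcrg-C1 under limma-voom and without any of C3, C3-3, H1 and H5. Trdc, the delta chain constant region, had a log2 fold change of -1.38 (adjusted p = 0.0801). The list's count was 1 without C3, C3-3, H1 or H5 and 6 without C1.

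T cell markers varied widely between the mice of each group. Of 13 tested, 1 was called lower (Cd3g, -1.68) and 1 higher (Cd4, 1.62). At an unadjusted p under 0.05, 5 were lower and 1 higher. Log2 fold changes were below 0 in 11 of the 13, with a median of -1.09. The count of genes called lower was 9 without C1 and 0 without C3, C3-3 or H1, and Cd4 was not called without H9. Cd3e, part of the T cell receptor complex, had a log2 fold change of -1.25 (adjusted p = 0.0875). The summed level of the 13 was 143 CPM in C1, 571 in C3 and 474 in C3-3, and 71.3, 175 and 145 CPM in H1, H5 and H9. The groups overlapped in this sum. Over the 10 H2-Q and H2-T genes the sum was 1526 CPM in C1, 1403 in C3 and 1762 in C3-3, and 258, 278 and 307 CPM in H1, H5 and H9, with no overlap. No defining T cell marker was at 0 in all libraries.

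MHC class II genes fell as well, with 7 of 10 called lower and 1 higher (H2-Oa, 1.54, a call lost without C1, C3-3, H1 or H9) and a median of -3.61. The 3 largest falls were those of H2-Ab1 (-5.85), H2-DMb1 (-5.68) and H2-Aa (-5.08), the last a call lost without H1. Without C3-3 these were -4.57, -4.27 and -3.67. Their summed level was 2031 CPM in C1, 1515 in C3 and 7420 in C3-3, and between 91.5 and 181 CPM in Hdac1/2-deleted mice. C3-3, the highest control mouse for class II, was also the highest for H2-Q1, H2-Q4, H2-T22 and H2-T23, but not for H2-Q2, H2-T3 or H2-T10.

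Markers of other cells were low beside the epithelial ones. Myeloid markers summed to between 78.9 and 82.7 CPM in control and between 35.7 and 52.4 CPM in Hdac1/2-deleted mice, with Cd14 lower (-2.01) and Csf1r higher (1.75) of 8 tested. B and plasma cell markers summed to between 6.91 and 63.6 CPM and between 44.4 and 62.5 CPM, with Cd79b higher (4.84) of 5 tested. Stromal and endothelial markers summed to between 17.0 and 48.7 CPM and between 20.3 and 32.0 CPM. Of 10 tested, Acta2 (-6.74), Des (-6.26) and Dcn (-1.48) were lower and Pdgfrb (3.00) higher. Des lost its call without H1 or H9 and Dcn without C1, H1 or H5. In C1, C3 and C3-3, Acta2 was at 12.5, 11.1 and 0.602 CPM and Des at 13.3, 14.1 and 0.659 CPM. In Hdac1/2-deleted libraries Acta2 had at most 6 counts and Des at most 8, so these 2 fold changes are imprecise. Of 9 epithelial markers, 0 were called lower, with 3 lower at an unadjusted p under 0.05, and Krt18 was higher (1.02), a call lost without C3 or H5. Epcam had a log2 fold change of -0.62 (adjusted p = 0.0174) and Vil1 one of -0.47 (adjusted p = 0.101). The part of T cells, class II-bearing cells or other cells in the change of the H2-Q and H2-T genes was not tested.

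**Figure D5:**
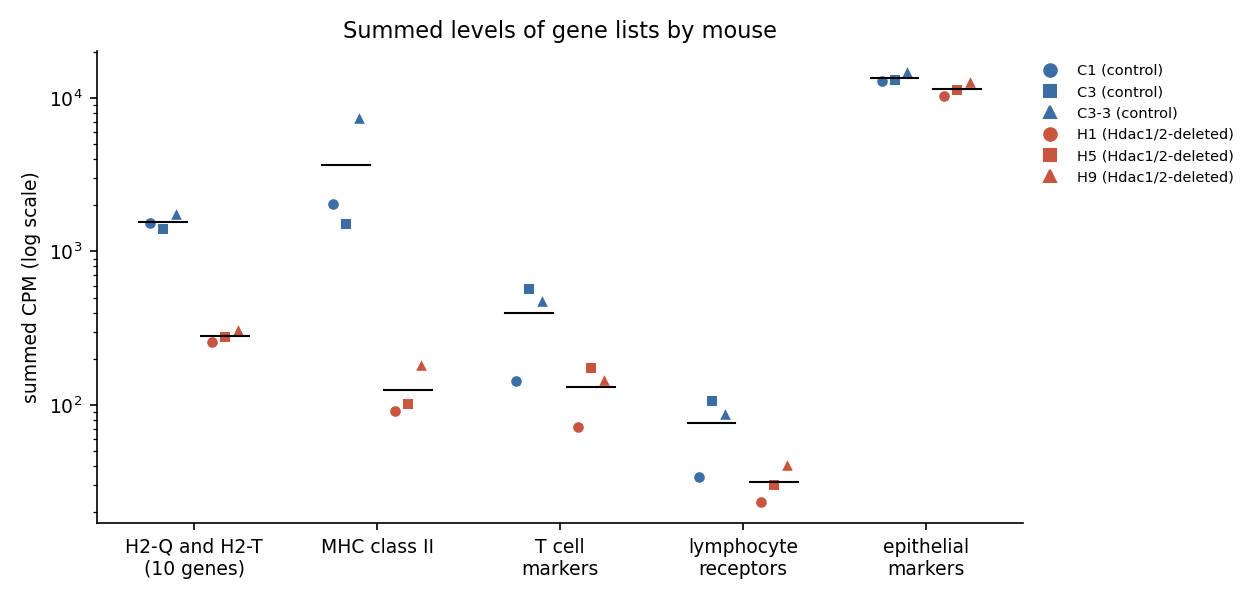
Summed CPM of the 10 H2-Q and H2-T genes, of MHC class II genes, of T cell markers, of the lymphocyte receptors and of epithelial markers in each mouse on a log axis, with a black bar at each group's mean. The groups stand apart in the H2-Q and H2-T sum, in the MHC class II sum and, narrowly, in the epithelial sum. They overlap in the T cell and lymphocyte receptor sums.

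The gene most abundant per kilobase in control mice, H2-Q2, was compared with 8577 genes of a mean log2 CPM of at least 3, by the root mean square difference of their log2 CPM over the 6 mice after each gene's mean was removed. The 5 most alike were Ccl6 (0.184), Nr2c1 (0.233), 5330417C22Rik (0.236), Dpp4 (0.236) and Bst1 (0.243), which lie on chromosomes 11, 10, 3, 2 and 5. Ccl6 encodes a chemokine, Nr2c1 a nuclear receptor, and Dpp4 a dipeptidyl peptidase of the brush border. All 5 were lower in every Hdac1/2-deleted mouse than in any control mouse, as H2-Q2 was, and in Ccl6 and Nr2c1 the order of the control mice was that of H2-Q2, with C1 highest and C3 lowest, Ccl6 giving 129, 84.2 and 111 CPM in C1, C3 and C3-3. The likeness rests on 6 mice and largely on the difference between the groups, which many genes share.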

How the data were processed

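Poly(A) RNA of EDTA-enriched jejunal IEC was sequenced as strand-marked paired reads of 100 bases, 1 library per mouse, 3 per group. Per the labels, reads were demultiplexed with bcl2fastq 1.8.4 and aligned with STAR 2.4.0f1. The labels name the build mm9 and the study's methods GRCm38, and the annotation and counter are not given in the sources used here. The raw count columns deposited by the authors, whole numbers per gene, were used. The authors' log2 fold change, CPM and p-value columns (the deposited score and p-value columns of their own edgeR and DESeq comparisons) were not used.

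Counts were analysed in R 4.3.3 with edgeR 4.0.16 (filterByExpr, TMM, robust quasi-likelihood test, Benjamini-Hochberg adjustment over 15618 genes, prior count 0.125). CPM were computed with TMM-scaled library sizes. limma 3.58.1 and DESeq2 1.42.0 served as alternatives. The statistics were tested on simulated counts. Gene positions and exon lengths came from GENCODE vM21, matched for 19526 of 19616 genes, whatever build the reads were aligned to.

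The 10 genes and all lists were chosen with earlier results of these data known. The text names the 10, preset genes of the lists (1 is not reported here), up to 3 called genes of largest change per list, called genes within the clusters and the 5 genes most alike to H2-Q2. H2-Bl, H2-K2, H2-M2, H2-Q3 and H2-Q6 were added after their values had been seen. P-values set the difference between the groups against the spread between these mice, as estimated with the help of all tested genes.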

Additional observations from a re-analysis of the deposited data

How the results depend on the processing

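The count of 7 genes called lower was 6 to 7 over all alternatives, the call lost being that of H2-Q4, without H1, H5 or H9 and at an adjusted p limit of 0.01. The other 6 were called under every alternative run (DESeq2 size factors, library totals, the DESeq2 Wald test, limma-voom, both filters, prior count 2, no 2-fold limit and leaving out each mouse), and 0 were called higher. With each mouse left out in turn, the median log2 fold change of the 10 genes was -2.20 to -1.93, the log2 ratio of the summed H2-Q level -2.56 to -2.30 and that of the summed H2-T level -2.63 to -2.45. H2-Q7 had a log2 fold change of 0.16 without C3-3 (range with each mouse left out -0.53 to 0.16) and H2-Q10 one of 0.28 without C3 (-0.45 to 0.28), neither past the threshold. Scaling by library totals alone gave -2.35 for the summed H2-T level, against -2.54, and moved the median of all genes to 0.18, with 1538 genes lower and 2463 higher in place of 1990 and 1944. Some list counts moved by over 1.5 times. DESeq2 called 5 T cell markers, 5 lymphocyte receptors and 2 myeloid markers lower, and limma-voom 4 T cell markers, in place of 1, 3, 1 and 1. Library totals gave 1 peptide loading gene and 1 regulator lower, in place of 3 and 2, and 2 myeloid markers higher in place of 1. Without the 2-fold limit 6 regulators, 4 interferon receptor and kinase genes, 2 epithelial markers and 1 immunoproteasome gene were lower. At the limit of 0.01, 1 lymphocyte receptor, 1 further nonclassical gene and 0 T cell markers were lower. A minimum of 10 counts in every sample left 1 stromal marker lower, as did leaving out H1. Without C1, 2 myeloid markers were lower and 2 B and plasma cell markers higher. The causes were not tested. No paired analysis was possible because nothing in the labels ties a control mouse to an Hdac1/2-deleted mouse, and the names of the groups share no more than 1 number. With 3 mice per group of mixed background, and counts as low as 48 for H2-T24, smaller changes of H2-Q7, H2-Q10 and H2-T24 may not have been detectable.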
